A study of Mus musculus with 12 samples.

Results

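The genes described here are 8 transcripts of the cytotoxic effector program, namely the granzymes Gzma, Gzmb and Gzmk, the pore-forming protein gene Prf1, the granule and receptor genes Nkg7, Klrd1 and Ctsw, and the chemokine gene Ccl5. They were taken by gene symbol, and all 8 had an entry in each of the 12 libraries, among 23247 features in all. The study sequenced RNA of splenic CD4 T cells of C57BL/6 mice, sorted either as CXCR5+PD-1+ T follicular helper (TFH) cells or as CXCR5-PD-1- non-TFH cells. Mice of every group carried the Ets1 flox/flox alleles. For WT mice no Cre is labelled, and the conditional knockout (KO) mice also carried CD4-cre, whose promoter is active in developing thymocytes and so deletes in T cells generally, not in TFH cells alone. Each genotype gave 3 TFH and 3 non-TFH libraries. The labels state no age, treatment or immunisation, nor whether replicates are separate animals. The p-values then measure only the spread between these libraries, and the labels do not say whether it is technical or biological.

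Cytotoxic lymphocytes kill by releasing granules onto a target cell. Perforin, the product of Prf1, opens the target membrane to granzymes, serine proteases stored on the proteoglycan serglycin, and granzyme B cleaves caspase substrates and so starts apoptosis. The program is best known in CD8 T cells and natural killer (NK) cells, but CD4 T cells of type 1 and regulatory type can also carry parts of it, whereas follicular helper cells are known for helping B cells rather than for killing.

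Levels are scaled FPKM, that is fragments per kilobase of transcript per mapped fragments of the library, as deposited, and then scaled between libraries by a median ratio. They are corrected for length and can be compared between genes. Changes are differences in log2(FPKM + 1) with their standard error (SE) from limma, with Benjamini-Hochberg adjustment over all 11112 features tested and a threshold of 0.05. The added 1 makes the change of a gene near 0 smaller than its true size. The tables hold no counts, so that the depth is not known from them and no counting interval was drawn. All 8 genes passed the filter of 1 FPKM in at least 3 libraries, Gzmk through TFH libraries only.

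The sorted cells carried T cell transcripts. Cd4 stood at 254 to 419.7 FPKM in non-TFH and 167 to 292 in TFH libraries, and Pdcd1, which encodes the PD-1 used for the sort, at 1.39 to 1.64 and 316 to 705 FPKM. Ncr1, the NK receptor NKp46, stood at or below 2.16 FPKM in every library. Macrophage markers (9 genes) summed to 1193 to 1210.1 FPKM in the 2 WT TFH libraries with a value for all of them, to 662 to 988 in KO TFH libraries and to 37.5 to 159 in non-TFH libraries. B cell markers (7 genes) summed to 62.5 to 71.2, 36.1 to 41.5 and 1.16 to 2.65 FPKM in WT TFH, KO TFH and non-TFH libraries. Ets1 was not lower in the KO libraries (379 to 413 FPKM against 401 to 410.4 in non-TFH cells, 223 to 270.1 against 170.2 to 214 in TFH cells). This level is over the whole gene, whose remaining exons may still be transcribed after deletion, and so checks nothing about it. The Y-linked gene Ddx3y had the value 0 in each of the 3 KO TFH libraries and stood at 2.21 to 33.4 FPKM in WT TFH and 40.3 to 68.0 in non-TFH libraries (missing in WT non-TFH replicate 1). Xist, which is transcribed from the inactive X chromosome of females, was at 0, 15.9 and 13.6 FPKM in WT TFH replicates 1, 2 and 3, where Ddx3y was at 33.4, 2.21 and 5.26 FPKM, and at 23.2, 16.6 and 14.8 FPKM in the KO TFH libraries. It was at 19.6, 0.324 and 0.0826 FPKM in KO non-TFH replicates 1, 2 and 3 and at 1.80 and 0.163 FPKM in WT non-TFH replicates 2 and 3. Sex-linked RNA thus differed between replicates of WT TFH and of KO non-TFH cells as well as between groups, so that these replicates are not all repeats of the same sample, and its part in the results was not tested.

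**Figure D1:**
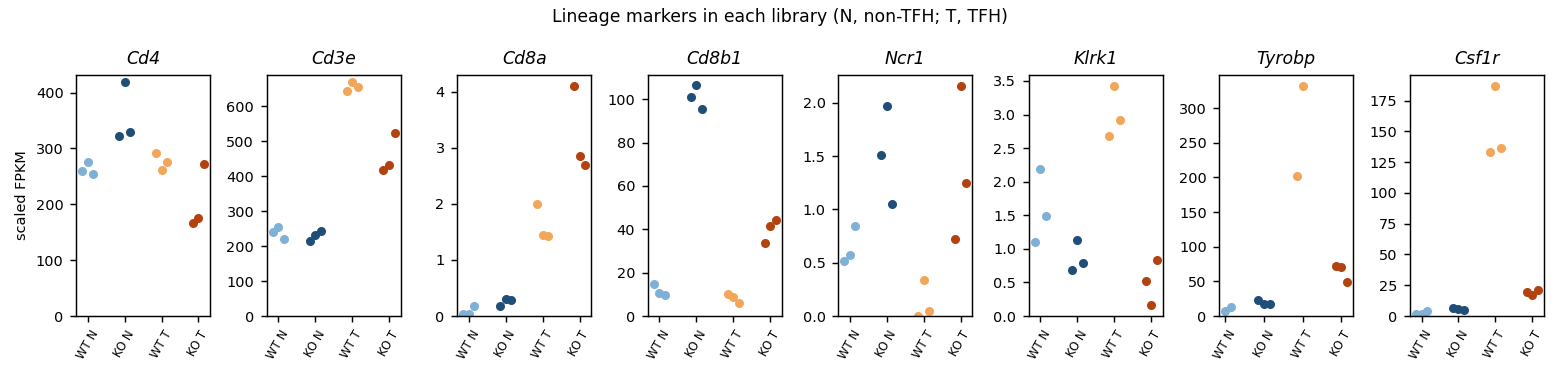
Levels of 8 lineage markers (vertical axes, scaled FPKM, each from 0) in every library, with a point per library and groups along the horizontal axis. Cd8b1 stands at 95.6 to 106 FPKM in KO non-TFH libraries while Cd8a stands at 0.178 to 0.308 there, and Csf1r and Tyrobp are highest in WT TFH libraries.

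The change of non-TFH cells with genotype went in opposite directions within the program. In KO non-TFH cells the granzyme gene Gzmb rose 117-fold as a ratio of mean FPKM and Nkg7 rose 7.78-fold, whereas Prf1 was 9.78-fold, Klrd1 11.8-fold and Ctsw 15.1-fold lower. Gzma, Gzmk and Ccl5 did not pass the test. Of the 8 genes 2 were thus called higher and 3 lower, where limma called 20.3% of all features tested, 11.8% higher and 8.56% lower. The median change of the 8 genes was 0.25, beside 0.03 over all features. In such bulk samples fewer cells of a type and less RNA per cell cannot be told apart.

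Gzmb (chromosome 14, 56258858 to 56262260, mm10) encodes granzyme B. The WT non-TFH libraries gave 0.481, 0.271 and 0.527 FPKM, and the KO non-TFH libraries 54.3, 52.5 and 42.7 FPKM. Every KO library lay far above every WT library, and the WT values were low, with the authors' deposited bounds running from 0.0245 to 0.778 FPKM before scaling. The change was 5.15 ± 0.36 log2 (SE, n = 3 per group, adjusted p = 1.62e-06 by limma).

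Prf1 (chromosome 10, 61297836 to 61304263), the perforin gene, moved the other way. Its level was 12.2, 11.5 and 11.8 FPKM in the WT non-TFH libraries, with an SD of 0.362, and 1.16, 1.60 and 0.865 FPKM in their KO counterparts. The groups did not overlap, and the change was -2.55 ± 0.26 log2 (adjusted p = 2.47e-05 by limma). The authors' bounds for WT replicate 3 were wide, 0 to 52.0 FPKM. The commonest entry boundaries for Prf1, given above, were those of 5 of 12 libraries, namely all 3 KO non-TFH libraries, 1 WT TFH and 1 KO TFH library, and of 0 of the 3 WT non-TFH libraries. The boundaries therefore differed between the groups compared here, and their part in the change was not tested. For Klrd1 5 of 12 libraries had the commonest boundaries, 1 of the 3 WT and 1 of the 3 KO non-TFH libraries among them. The ratio of Gzmb to Prf1 was 0.0236 to 0.0447 in WT and 32.9 to 49.3 in KO non-TFH libraries. Both ends rest on low values, Gzmb at 0.271 to 0.527 FPKM in WT and Prf1 at 0.865 to 1.60 in KO libraries.

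Nkg7 (chromosome 7, 43437138 to 43438246) encodes a granule membrane protein that takes part in degranulation. Non-TFH libraries of WT mice held 3.44, 5.56 and 5.53 FPKM, and those of KO mice 35.6, 40.8 and 36.6. All KO libraries were higher than all WT libraries (2.75 ± 0.21 log2, adjusted p = 5.88e-06 by limma). Klrd1 (chromosome 6, 129591811 to 129598775) encodes CD94, a receptor chain that pairs with NKG2 proteins. Its non-TFH levels were 23.1, 23.8 and 26.7 FPKM for WT and 2.26, 2.75 and 1.23 FPKM for KO mice, again without overlap (-3.08 ± 0.25 log2, adjusted p = 4.99e-06 by limma). In the same WT libraries the gene of its usual partner, Klrc1 (NKG2A), was at 0.405, 0.741 and 0.779 FPKM, and the NK receptor gene Klrk1 at 1.11, 2.18 and 1.49 FPKM. Both NK receptor transcripts were thus far below Klrd1 itself. Other NK receptor and adaptor genes varied in these libraries, with Klrg1 at 0.0559 to 0.245 and Hcst at 146 to 155 FPKM.

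Ctsw (chromosome 19, 5465240 to 5468498) encodes cathepsin W, a protease found in cytotoxic lymphocytes. Non-TFH libraries held 55.4, 45.4 and 45.6 FPKM with the WT genotype and 2.75, 2.28 and 4.68 FPKM with the KO genotype, and the groups lay far apart (-3.59 ± 0.46 log2, adjusted p = 0.000213 by limma). Gzma (chromosome 13, 113093827 to 113100981), the granzyme A gene, was measured at 3.39, 1.67 and 5.84 FPKM in the WT and 10.5, 12.3 and 7.19 FPKM in the KO non-TFH libraries. The groups did not overlap, but the spread was wide and the change of 1.32 ± 0.48 log2 did not pass (adjusted p = 0.0788 by limma). It passed when the non-TFH groups were fitted alone (adjusted p = 0.0360) or with array weights (0.0109), within a range of 0.0109 to 0.258 over all alternatives. Gzmk was low in both groups (0.111 to 0.339 FPKM for WT, 0.359 to 0.789 for KO mice, 0.32 ± 0.21 log2, adjusted p = 0.348 by limma). Ccl5, a chemokine of effector T cells, was at 9.54 and 17.8 FPKM in the 2 WT libraries with an entry of its own and at 13.2, 21.9 and 11.6 FPKM in the KO non-TFH libraries. These overlapped, and the change of 0.18 ± 0.35 log2 did not pass. In WT non-TFH replicate 3 Ccl5 shared its entry with Heatr9, and its value there was treated as missing.

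Beside these changes Cd8b1, a CD8 chain gene, was at 14.6, 10.8 and 9.86 FPKM in WT non-TFH and 101, 106 and 95.6 FPKM in KO non-TFH libraries (3.02 ± 0.18 log2, adjusted p = 4.73e-07 by limma), whereas Cd8a, the other CD8 chain, was at 0.0441 to 0.171 FPKM in the former and 0.178 to 0.308 in the latter. The 5 NK marker features summed to 11.3 to 17.3 FPKM in the 2 WT libraries with all values and to 33.5 to 41.0 in KO libraries, with none at 0 throughout a group. The most abundant of them was Tyrobp, which macrophages also express, and its change did not pass (adjusted p = 0.0523 by limma). Eomes, also among the 5, was the only 1 called higher, at 0.873 to 1.18 FPKM in WT and 13.2 to 17.5 in KO non-TFH libraries. Macrophage markers summed to 37.5 to 78.6 FPKM in WT and 126 to 159 in KO non-TFH libraries, 7 of 9 being called higher. Their part in the changes of the 8 genes was not tested.

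**Figure D2:**
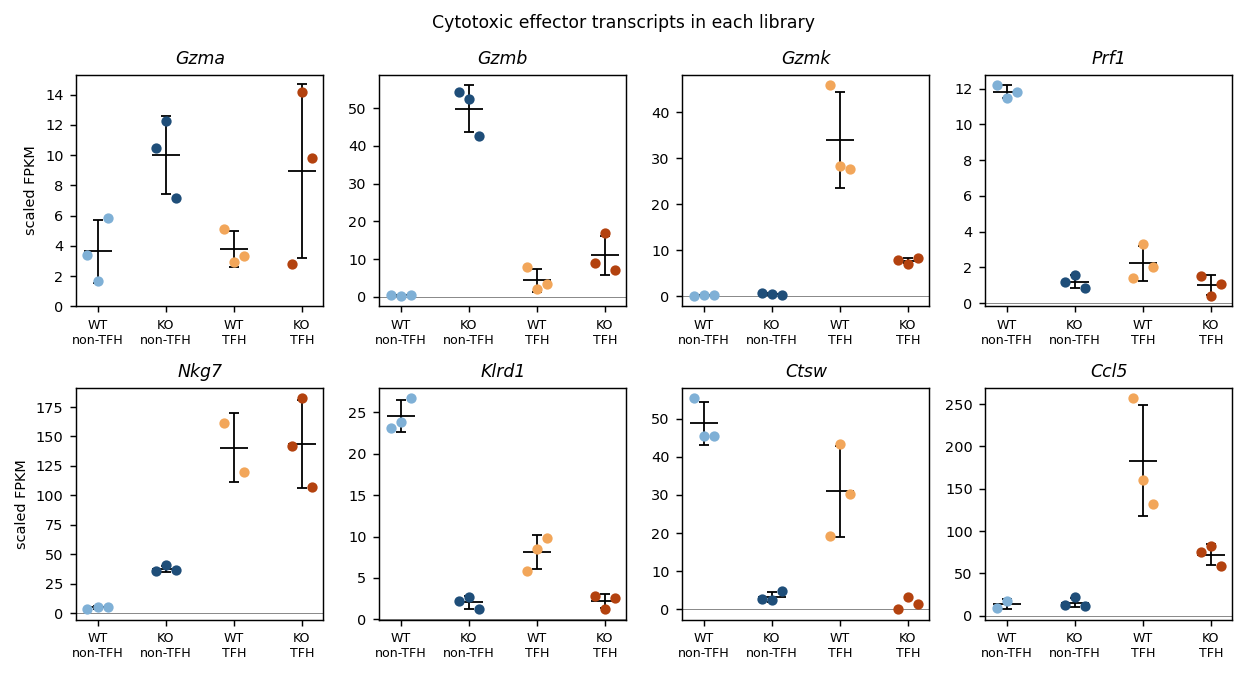
Scaled FPKM (vertical axes, each with its own scale) of the 8 genes in every library, with a point per library and a bar and whiskers for mean and SD (2 points for Nkg7 in WT TFH and Ccl5 in WT non-TFH cells, no bar for Ctsw in KO TFH cells because a library is listed at 0). Gzmb is highest in KO non-TFH libraries (42.7 to 54.3 FPKM), Prf1, Klrd1 and Ctsw in WT non-TFH libraries, and Gzmk and Ccl5 in WT TFH libraries.

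The upstream sequences of the genes are shown because Ets1 belongs to the ETS family, whose factors bind DNA around a GGAA core, and because Gzmb and Prf1 moved in opposite directions. Sequences are RefSeq (GRCm38.p6, the mm10 assembly), read 5′ to 3′ on the strand of the gene and ending just before the annotated start of the gene. A promoter was found for 5 of the 8 genes, and those of the 4 genes with a called change are printed. Capitals mark GGAA or its reverse complement TTCC.
Gzmb, chr14:56262335-56262584, minus strand: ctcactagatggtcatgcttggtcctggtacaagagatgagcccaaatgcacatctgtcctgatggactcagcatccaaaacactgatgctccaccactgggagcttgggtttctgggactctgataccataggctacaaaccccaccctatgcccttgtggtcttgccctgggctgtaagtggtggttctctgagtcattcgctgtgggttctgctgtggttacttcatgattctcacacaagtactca
Prf1, chr10:61297586-61297750, plus strand: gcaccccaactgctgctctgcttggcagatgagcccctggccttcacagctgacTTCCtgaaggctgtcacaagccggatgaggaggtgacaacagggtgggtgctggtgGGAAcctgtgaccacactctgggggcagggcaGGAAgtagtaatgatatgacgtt
Nkg7, chr7:43436888-43437137, plus strand: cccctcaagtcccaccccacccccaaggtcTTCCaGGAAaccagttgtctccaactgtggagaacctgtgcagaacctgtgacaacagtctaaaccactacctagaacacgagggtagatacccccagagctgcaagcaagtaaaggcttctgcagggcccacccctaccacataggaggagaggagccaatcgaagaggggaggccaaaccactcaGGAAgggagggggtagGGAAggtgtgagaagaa
Gzmk, chr13:113180966-113181215, minus strand: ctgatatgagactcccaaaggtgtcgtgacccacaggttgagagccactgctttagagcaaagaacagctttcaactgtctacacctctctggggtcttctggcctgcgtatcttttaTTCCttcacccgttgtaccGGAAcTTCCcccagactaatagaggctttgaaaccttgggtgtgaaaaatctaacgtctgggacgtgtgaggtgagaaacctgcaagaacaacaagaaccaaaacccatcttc

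The core GGAA, searched on both strands, occurred 0 times in the 250 bases before Gzmb, 3 times before Gzma and Gzmk, and 4 times before Nkg7. Of 32851 RefSeq promoters, 93.4% held it in the same length, with a median of 3 matches. In the 165 bases before Prf1 it occurred 3 times, and 83.8% of promoters held it in that length. The RUNX core TGTGGT occurred 2 times before Gzmb and 1 time before Gzma, Nkg7 and Prf1, but not before Gzmk, and 14% of promoters held it at least 1 time in 250 bases and 9.23% in 165. At least 2 matches, as before Gzmb, were held by 1.27% of promoters. The T-box core GGTGTGA occurred 1 time before Gzmk and 1 time before Nkg7, and 3.33% of promoters held it in 250 bases. In Nkg7 this match directly followed a GGAA match, without overlap. Such matches describe letters in these windows only, and their absence says nothing about binding of any factor elsewhere.

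In TFH cells 4 of the 8 genes fell in KO libraries. Gzmk was 4.36-fold, Klrd1 3.65-fold and Ccl5 2.54-fold lower as ratios of mean FPKM, and Ctsw fell as well. Gzmb rose 2.48-fold, a call that several alternatives ended, and Gzma, Prf1 and Nkg7 did not pass. Of the 8 genes 1 was thus called higher and 4 lower, where limma called 30.7% of all features, 15.6% higher and 15% lower. The median change of the 8 genes was -0.99, beside 0.04 over all features. Of 9 macrophage markers 7 were called lower and 2 higher in the same KO libraries (median -2.40). Csf1r, the macrophage growth factor receptor, was at 133, 187 and 136 FPKM with the WT and 19.9, 17.0 and 20.9 FPKM with the KO genotype, whereas Lyz2 was at 278 and 289 FPKM in the 2 WT libraries with a value and 756, 469.5 and 598 in the KO ones. NK markers summed to 209 to 339.9 FPKM in the 2 WT libraries with all values and 53.0 to 77.8 in KO TFH libraries, Tyrobp making up most of both, and Cd8b1 was at 6.10 to 10.3 and 33.9 to 44.1 FPKM. Their part in these changes was not tested.

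Gzmk (chromosome 13, 113171874 to 113180897) encodes granzyme K, a tryptase-like granzyme expressed in effector memory T cells. WT TFH libraries held 45.9, 28.2 and 27.6 FPKM and KO TFH libraries 7.95, 7.10 and 8.30 FPKM. All KO libraries were lower than all WT libraries, and they lay close together (SD 0.619 FPKM). The change was -1.95 ± 0.21 log2 (adjusted p = 3.67e-05 by limma). The entry boundaries given were those of 9 of 12 libraries. WT TFH replicates 2 and 3 and KO TFH replicate 2 had others, whose part in the change was not tested. Ccl5 (chromosome 11, 83525779 to 83530518) was at 257, 160.1 and 133 FPKM with the WT and 75.4, 82.3 and 58.7 FPKM with the KO genotype, also without overlap (-1.29 ± 0.31 log2, adjusted p = 0.0113 by limma). Array weights ended this call (adjusted p = 0.113, range 0.00662 to 0.113 over the alternatives).

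Ctsw was at 19.2, 43.3 and 30.3 FPKM in WT TFH libraries, and among the KO TFH libraries it was listed at 0 in replicate 1 and was at 3.25 and 1.42 FPKM in the others. The highest KO value lay below the lowest WT value. The change was -3.80 ± 0.46 log2 (adjusted p = 0.000126 by limma), or -3.24 with the 0 treated as missing. Klrd1 levels were 5.89, 8.54 and 9.89 FPKM for WT and 2.85, 1.27 and 2.54 FPKM for KO TFH libraries, with no overlap (-1.51 ± 0.25 log2, adjusted p = 0.000976 by limma).

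Gzmb levels were 7.87, 1.99 and 3.41 FPKM for WT and 8.84, 16.9 and 7.22 FPKM for KO TFH libraries. The lowest KO library lay under the highest WT library, so that the groups overlapped. The change of 1.21 ± 0.36 log2 passed (adjusted p = 0.0261 by limma), but not with the TFH groups alone (0.108), without a filter on low values (0.0521), or without WT TFH replicate 2 (0.0922), WT TFH replicate 3 (0.0715) or KO TFH replicate 2 (0.0967), with a range of 0.00279 to 0.108 over the alternatives. Gzma was at 5.14, 2.91 and 3.31 FPKM for WT and 2.82, 14.2 and 9.81 FPKM for KO TFH libraries. The KO libraries spanned the WT ones, and the change of 0.87 ± 0.48 log2 did not pass (adjusted p = 0.199 by limma). Without KO TFH replicate 1, the low library, it passed (1.45 log2, adjusted p = 0.0154, range 0.0154 to 0.529 over the alternatives).

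Prf1 was at 1.39, 3.29 and 2.01 FPKM for WT and 1.53, 0.415 and 1.05 FPKM for KO TFH libraries, with overlap (-0.69 ± 0.26 log2, adjusted p = 0.0625 by limma). It passed without WT TFH replicate 1 (0.0281) or KO TFH replicate 1 (0.0321), within 0.0281 to 0.208 over the alternatives. Nkg7 was at 161 and 119.7 FPKM in the 2 WT TFH libraries with an entry of its own, and at 142, 182 and 107 FPKM in the KO TFH libraries. These values overlapped, and the change of 0.02 ± 0.24 log2 did not pass. In WT TFH replicate 2 Nkg7 shared its entry with Etfb, and its value there was treated as missing.

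**Figure D3:**
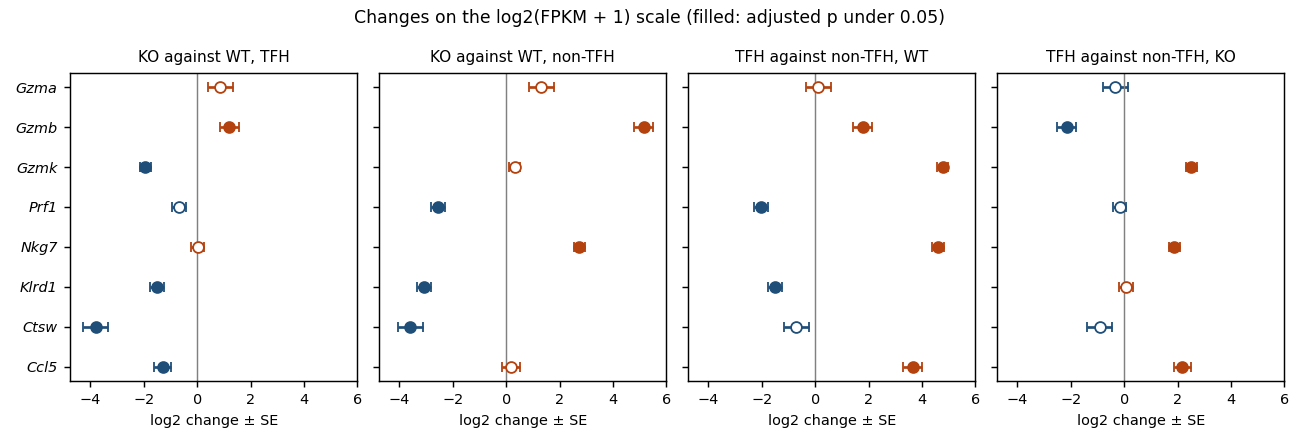
Log2 changes of the 8 genes (horizontal axes, log2(FPKM + 1) scale, whiskers are SE) in the 4 comparisons, with filled circles where limma's adjusted p was under 0.05. Ctsw and Klrd1 lie left of 0 in both comparisons of KO with WT, and Gzmk, Nkg7 and Ccl5 lie right of 0 in both comparisons of TFH with non-TFH cells.

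The make-up of the granzyme transcripts differed between the groups. In WT non-TFH libraries Gzma, Gzmb and Gzmk summed to 2.28 to 6.61 FPKM, of which Gzma made up 73.3% to 88.3%. In KO non-TFH libraries the sum was 50.2 to 65.6 FPKM and Gzmb made up 80.5% to 85.0%. In WT TFH libraries the sum was 33.1 to 58.9 FPKM and Gzmk made up 77.9% to 85.2%. In KO TFH libraries it was 19.6 to 38.2 FPKM, of which Gzmk made up 18.6% to 40.5% and Gzmb 28.5% to 45.1%. The leading granzyme was the same in all 3 libraries of a group except in KO TFH cells, where Gzmb led in replicates 1 and 2 and Gzma in replicate 3. Of the other granzymes, Gzmc stood at or below 1.66 and Gzmf at or below 1.28 FPKM in every library, and Gzmd, Gzme and Gzmg were listed at 0 in all 12 libraries.

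**Figure D4:**
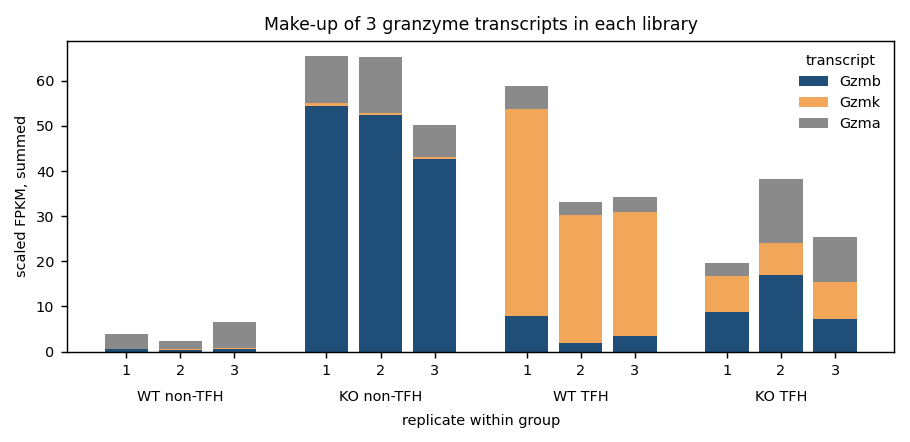
Scaled FPKM of Gzmb, Gzmk and Gzma stacked for every library (vertical axis from 0, replicates of the 4 groups along the horizontal axis). Gzmb makes up most of the bars in KO non-TFH libraries and Gzmk most of those in WT TFH libraries.

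The genotype change differed between the cell types for 5 of the 8 genes by the interaction term of the fit, taken as the TFH minus the non-TFH change. It was positive for 2 and negative for 3, where limma called 17.4% of all features, 6.83% higher and 10.5% lower. The difference was -3.94 ± 0.52 log2 for Gzmb (adjusted p = 0.000363 by limma) and -2.73 ± 0.32 for Nkg7 (adjusted p = 0.000246), whose changes were larger in non-TFH cells. It was -2.27 ± 0.29 for Gzmk (adjusted p = 0.000318), which was below 1 FPKM in non-TFH cells of either genotype. For Prf1 it was 1.86 ± 0.36 (adjusted p = 0.00430) and for Klrd1 1.57 ± 0.36 (adjusted p = 0.0107), whose changes were more negative in non-TFH cells. For Ctsw the difference was -0.21 ± 0.65 (adjusted p = 0.870) and did not pass. For Ccl5 it was -1.47 ± 0.47 and did not pass (adjusted p = 0.0596), but passed with 0 values as missing (0.0434), with shared entries included (0.0397), without WT non-TFH replicate 2 (0.0350) and without WT TFH replicate 3 (0.0420), within 0.0350 to 0.220 over the alternatives. For Gzma it was -0.45 ± 0.68 and did not pass.

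TFH cells were then compared with non-TFH cells within each genotype. These comparisons use the same libraries as those above, and their values are given side by side. In WT mice Gzmk was 146-fold, Nkg7 29.0-fold, Ccl5 13.4-fold and Gzmb 10.4-fold higher in TFH cells as ratios of mean FPKM, whereas Prf1 was 5.30-fold and Klrd1 3.03-fold lower. Of the 8 genes 4 were called higher and 2 lower, where limma called 67.5% of all features, 35.3% higher and 32.1% lower, a share near that of the 8 genes. The log2 changes were 4.79 ± 0.21 for Gzmk, 4.60 ± 0.24 for Nkg7, 3.65 ± 0.35 for Ccl5 and 1.78 ± 0.36 for Gzmb. They were -2.03 ± 0.26 for Prf1 and -1.51 ± 0.25 for Klrd1. Gzmk, among the 4 called higher, passed the filter of 1 FPKM through TFH libraries only. Its test between cell types therefore does not stand apart from that filter. Ctsw (-0.71 ± 0.46) and Gzma (0.12 ± 0.48) did not pass.

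In KO mice the order of Gzmb was turned round. It stood 4.54-fold lower in KO TFH than in KO non-TFH cells (-2.16 ± 0.36 log2, adjusted p = 0.000246 by limma), and its highest KO TFH library lay below its lowest KO non-TFH library. Gzmk was 14.4-fold higher in KO TFH than in KO non-TFH cells (2.52 ± 0.21), Ccl5 4.64-fold (2.18 ± 0.31) and Nkg7 3.82-fold (1.87 ± 0.21). For Gzmk the limit set by the filter, given for WT mice, holds here too. Prf1, Klrd1, Ctsw and Gzma did not pass, with Prf1 at 0.415 to 1.60 and Klrd1 at 1.23 to 2.85 FPKM over both KO groups. Of the 8 genes 3 were called higher and 1 lower, where limma called 67% of all features, 33.5% higher and 33.6% lower. Ddx3y also separated these 2 groups, at 0 in every KO TFH and at 40.3 to 44.5 FPKM in the KO non-TFH libraries. The part of sex in these differences was not tested.

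With 3 libraries against 3, an exact two-sided permutation test cannot give a p below 0.1. It gave this smallest p of 0.1 for Gzma, Gzmb, Gzmk, Prf1, Nkg7, Klrd1 and Ctsw in the non-TFH comparison of genotypes. In the TFH comparison the test gave 0.1 for Gzmk, Klrd1, Ctsw and Ccl5, and an exact p of 0.2 for Gzmb and Prf1. The smallest p shows only that the groups did not overlap, and limma did not call Gzma and Gzmk in non-TFH cells. The share of all features that reach this p was not computed, so these lists cannot be set against a background.

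Across groups the 8 genes formed different orders of level. Prf1, Klrd1 and Ctsw were highest in WT non-TFH and next in WT TFH libraries, Gzmk and Ccl5 were highest in WT TFH and next in KO TFH libraries, and Gzmb was highest in KO non-TFH libraries. The neighbours in these orders did not overlap, save Prf1 between WT TFH, KO non-TFH and KO TFH libraries, Klrd1 and Ctsw between the KO groups, Ccl5 between the non-TFH groups, Gzmb between the TFH groups and Nkg7 between the TFH groups. For Gzma all neighbouring groups overlapped. As a description over libraries that share groups, Pearson's r of log2(FPKM + 1) was 0.98 between Gzmk and Ccl5 (11 libraries), 0.95 between Prf1 and Klrd1 and 0.86 between Klrd1 and Ctsw (12 libraries each), and -0.90 between Gzmb and Klrd1 and -0.83 between Gzmb and Prf1.

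Among 8158 features with a value in every library and at least 5 FPKM in at least 3 of them, the pattern of Gzmk over 12 libraries was most like that of Ifng, the type 1 cytokine (r = 0.99), and Smim3 was also among the 3 most alike. Ccl5 was most like Nucb1, Ctsl and Gzmk over 11 libraries, and Nkg7 like Rab19, Plek and S100a4. Gzmb was most like Gatsl3, Nedd4 and Fbxo34 (r of 0.97, 0.96 and 0.95), Prf1 like Tspan9, Myo10 and 2810001G20Rik, Klrd1 like Pvr, Atp1b1 and the joint entry of Ass1 and Gm5424, and Ctsw like B4galnt1, Tnfaip8l2 and Tbc1d14. The closest to Gzma, Myb, reached 0.85. The points share libraries and group means, and these values are a description.

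Genes that store, load and release cytotoxic granules did not move as a block. Of 15 tested features of granule machinery (19 with a feature of their own), 2 rose and 6 fell in KO TFH cells (median -0.03), and 3 rose and 3 fell in KO non-TFH cells (median 0.05), beside 30.7% and 20.3% of all features called in these comparisons. Srgn, which encodes the granule proteoglycan serglycin, was at 160.0, 168 and 150.0 FPKM in WT and rose to 408, 342 and 342 FPKM in KO non-TFH libraries (1.18 ± 0.09 log2). Stx11, a syntaxin needed for granule release, rose there from 0.606 to 0.899 to a range of 2.75 to 2.96 FPKM (1.12 ± 0.15). In TFH cells Stx11 rose as well, from 49.1 to 71.8 FPKM in WT to 131 to 143 FPKM in KO libraries (1.10 ± 0.15). Both granzyme inhibitor genes named by the rule fell in both cell types. Serpinb9, whose product inhibits granzyme B, fell by 1.23 log2 (SE 0.22) in non-TFH cells (2 WT libraries with a value) and by 1.40 log2 (SE 0.20) in TFH cells, and Serpinb6b, of the same serpin family, fell by 1.16 log2 (SE 0.24) in non-TFH cells. In TFH cells it fell by 3.08 log2 (SE 0.24). The synaptotagmin-like genes Sytl3 and Sytl1, of a family that tethers secretory vesicles, fell by 2.77 log2 (SE 0.34) and by 2.15 log2 (SE 0.26) in TFH cells, Sytl3 being listed at 0 in KO TFH replicate 1. Between cell types of WT mice, 8 of the 15 features had higher and 4 had lower levels on the TFH side, led by Stx11 (5.18 ± 0.15), Srgn (2.60 ± 0.09) and Ctsc (2.49 ± 0.18), the protease that activates granzymes. In KO mice 6 were higher and 4 lower, with Stx11 at 5.15 ± 0.15 and Lamp1, a lysosome membrane protein, at -2.17 ± 0.19. Over all features 67.5% were called between the cell types in WT and 67% in KO mice, so that the KO count of granule genes was near the background. Of 9 macrophage markers 8 were called higher on the TFH side in either genotype, and 1 lower. Their part in the granule gene differences was not tested.

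Among regulators of the program more rose than fell in KO non-TFH cells, and none was called higher in KO TFH cells. Of 16 tested, 6 rose and 3 fell in the former (median 0.20), and 0 rose and 8 fell in the latter (median -0.49), beside 20.3% and 30.7% of all features called. Eomes, a T-box factor of cytotoxic cells, was at 1.18, 0.873 and 1.15 FPKM for WT and 13.8, 17.5 and 13.2 FPKM for KO non-TFH libraries. The groups lay far apart (2.93 ± 0.30 log2, adjusted p = 2.66e-05 by limma). The interleukin receptor genes Il18r1 (1.62 ± 0.39), Il2rb (1.57 ± 0.08) and Il18rap (1.48 ± 0.28) rose too. In KO TFH cells Prdm1, which encodes the effector regulator Blimp-1, fell by 1.53 log2 (SE 0.28), Hopx by 1.35 (SE 0.17), Id2 by 0.98 (SE 0.29) and Runx3, a RUNX factor of cytotoxic T cells, by 0.96 (SE 0.20). The interaction term was called negative for 6 of the 16 and positive for 0, beside 17.4% of all features called, among them Eomes (-2.93 ± 0.42) and Il2rb (-2.48 ± 0.11).

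NK receptor and adaptor genes mostly fell in TFH cells. Of 16 tested features 12 fell and 3 rose in KO TFH cells (median -1.30), and 4 rose and 2 fell in KO non-TFH cells (median 0.30), beside 30.7% and 20.3% of all features called. Hcst, which encodes the signalling adaptor DAP10, fell in both. TFH libraries held 364, 351 and 365 FPKM for WT and 49.2, 51.1 and 46.5 FPKM for KO mice (-2.85 ± 0.08 log2), and non-TFH libraries 146, 150.4 and 155 FPKM for WT and 22.4, 20.8 and 19.3 FPKM for KO mice (-2.80 ± 0.08). No KO library reached the level of any WT library of its cell type. Crtam, a receptor of activated cytotoxic cells, fell by 1.90 log2 (SE 0.29) in TFH and fell by 1.94 log2 (SE 0.29) in non-TFH cells. Klrg1, an inhibitory receptor of effector cells, was at 0.0559, 0.227 and 0.245 FPKM for WT and 7.67, 14.7 and 7.59 FPKM for KO non-TFH libraries, again apart (3.17 ± 0.27 log2). Fcer1g and Tyrobp, adaptors that NK cells and macrophages share, fell by 2.23 log2 (SE 0.21) and by 2.02 log2 (SE 0.28) in KO TFH cells, where 7 of 9 macrophage markers were lower too.

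Chemokine and chemokine receptor genes listed beside Ccl5 were lower in KO TFH cells. All 5 of the 5 tested fell there, and 2 rose and 0 fell in KO non-TFH cells, beside 15% of all features called lower in the former and 11.8% called higher in the latter. Macrophage markers moved the same way, with 7 of 9 called lower in KO TFH cells (median -2.40) and 7 of 9 called higher in KO non-TFH cells (median 0.82), and their part in the chemokine changes was not tested. Ccl4 was at 37.1, 19.0 and 14.7 FPKM for WT and 8.69, 2.26 and 2.98 FPKM for KO TFH libraries (-2.19 ± 0.50 log2), and Ccl3 fell by 1.66 log2 (SE 0.42). In non-TFH cells, where Ccl4 was listed at 0 in WT replicates 1 and 2, it was at 6.87, 5.54 and 2.33 FPKM in KO libraries (2.11 ± 0.50), and Ccl3 rose by 1.81 ± 0.42 log2. The receptor gene Ccr3 (-3.24 ± 0.25) fell in TFH cells. Of 6 death ligand and receptor genes and effector cytokines, 3 fell and 0 rose in KO TFH cells (median -0.83, 30.7% of all features called), Ifng by 2.14 log2 (SE 0.29), Tnf by 1.65 log2 (SE 0.16) and Fasl, the ligand that triggers death through Fas, by 1.22 log2 (SE 0.29). In KO non-TFH cells 1 fell, Tnf by 0.73 log2 (SE 0.16), and 0 rose (median 0.16, 20.3% of all features called).

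**Figure D5:**
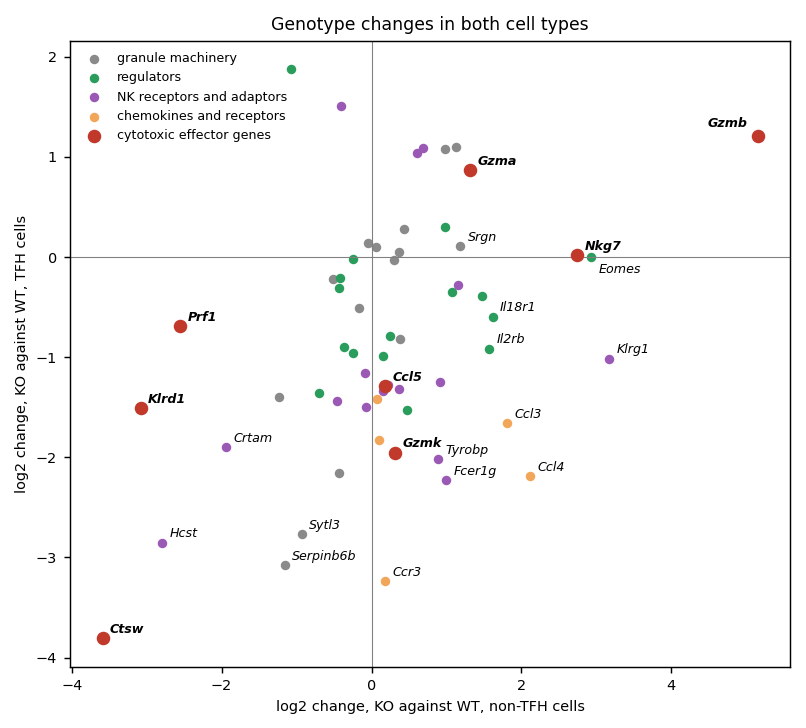
Log2 change of KO against WT in non-TFH cells (horizontal axis) and in TFH cells (vertical axis), on the log2(FPKM + 1) scale, for the 8 genes (large red points) and for regulators, granule machinery, NK receptors and adaptors, and chemokines with their receptors. Ctsw and Hcst lie low on both axes, Gzmb lies far to the right, and Ccl4 and Ccl3 lie to the right of 0 and below 0.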

How the data were processed

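The authors deposited a Cufflinks gene tracking table per library, with FPKM and its lower and upper bounds, per the file headers. Cufflinks and Cuffdiff, the aligners TopHat, TopHat2, Bowtie and Bowtie2, the read tools cutadapt and FastQC and the build mm10 are named, without versions, per the submitters' processing notes. Libraries were poly(A)-selected and strand-specific (TruSeq Stranded mRNA), per the labels' protocols. Cufflinks joined overlapping genes in some libraries only. Symbols standing alone in 2 or more libraries of each group made 22451 features, with values from shared entries left missing, and 796 joint features held the rest.

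Libraries were brought to one scale by their median ratio over 7162 features (factors 0.857 to 1.14). Without this, the median feature differed by 0.37 log2 (WT) and 0.27 (KO) between TFH and non-TFH cells. limma 3.58.1 (R 4.3.3; trend, robust) was fitted to log2(FPKM + 1) of all 12 libraries, with Python 3.11.15 for tables. The fit was tested on simulated data. The 8 genes, the lists and the naming rule (in each list and comparison, the called genes with the largest changes, up to 4; by likeness, the 3 highest r; of markers, the most abundant) were chosen with earlier results of these data known. Cd4, Cd8a, Ncr1, Klrk1, Klrc1, Csf1r, Ets1, Ddx3y and Xist are shown as checks, and the other granzymes, chosen after their values were seen. Some genes that the naming rule picks are not reported here.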

Additional observations from a re-analysis of the deposited data

Results flagged for a closer look

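The genotype change differed between TFH and non-TFH cells for 5 of the 8 genes by the interaction term of the limma fit (adjusted over all 11112 features). The difference was -3.94 log2 for Gzmb, -2.73 for Nkg7 and -2.27 for Gzmk, and 1.86 for Prf1 and 1.57 for Klrd1, each as the TFH minus the non-TFH change. Each of these 5 differences remained past the threshold in all 22 alternatives run.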

How the results depend on the processing

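In each of the 5 comparisons the count of the 8 genes called stayed within 1.5 times under the alternatives that were run. The count of all features called was 3408 for KO against WT in TFH cells, 2122 with these groups alone and 2221 with array weights, and in non-TFH cells 2257, 3597 and 4159. The cause was not tested. Of the changes that did not pass, 8 turned sign under at least 1 alternative. Nkg7 in TFH cells (KO against WT) was -0.13 with quantile normalization, -0.038 with the groups alone, -0.049 with array weights, -0.24 with shared entries included and -0.097 with the replicate block, and -0.19 to 0.23 when libraries were left out in turn. The interaction of Ctsw was 0.35 with 0 values as missing and -0.70 to 0.35 with libraries left out, and that of Gzma -0.87 to 0.13. With libraries left out, Ccl5 in non-TFH cells (KO against WT) ranged from -0.23 to 0.60, Gzma between cell types from -0.22 to 0.46 in WT and -0.74 to 0.26 in KO mice, and Klrd1 and Prf1 between cell types in KO mice from -0.16 to 0.30 and -0.36 to 0.060. Ctsw between cell types in KO mice passed without KO TFH replicate 2 (-1.40, adjusted p = 0.011 by limma). Same-numbered libraries did not deviate together (r -0.0341 to 0.0592), and the main fit did not pair them. Such values cannot show whether same-numbered libraries come from the same animals. Ddx3y, however, was at 0 in every KO TFH library and at 40.3 to 44.5 FPKM in the KO non-TFH libraries. Same-numbered KO libraries therefore did not come from the same set of animals. With the replicate block 3231, 2102, 7213, 7177 and 1407 features were called, against 3408, 2257, 7496, 7449 and 1928 without it. FPKM below about 1 limit the folds of Gzmb and Gzmk against WT non-TFH cells.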
